A study of Mus musculus with 6 samples.

Results

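The genes described here are 10 transcription factors that direct growth and differentiation of the hair follicle: Foxn1, Hoxc13, Msx1, Msx2, Dlx3, Lef1, Gata3, Cux1, Foxe1 and Foxq1. They were taken by symbol from the deposited count table, which holds all 10 among its 18180 genes, and all 10 were among the 15061 genes with enough counts to test. RNA came from tail skin of mice in 2 groups of 3 libraries. Control libraries came from Mettl3fl/fl;K14creERT2-/- mice, whose floxed Mettl3 alleles met no Cre. The other group, labelled cKO, came from Mettl3fl/fl;K14creERT2+/- mice, in which a K14-driven, tamoxifen-activated Cre recombinase targets Mettl3 in basal keratinocytes and their descendants, follicle epithelium included, but not in dermal, vascular or blood-derived cells. Per the series' design text, mice received tamoxifen on 5 consecutive days, and tissue was taken 4 weeks later from spontaneously inflamed parts of the tail in the Cre group and from normal tail in controls, so genotype and inflammation cannot be told apart. The sources used here give no age, sex or strain and do not tie libraries to individual mice. The p-values therefore describe the scatter among these 6 libraries, which may be technical.

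In a growing follicle, rapidly dividing matrix cells at the base of the bulb give rise to the hair shaft and, around it, the inner root sheath that moulds it. Lef1 partners with beta-catenin to carry Wnt signals in matrix and shaft precursors, Msx2 and Dlx3 are homeobox factors acting on the matrix, and Hoxc13 and Foxn1 drive the keratin genes of the shaft. Foxn1 is the gene mutated in nude mice, whose hair shafts break at the skin surface, and Foxq1 is the gene mutated in satin mice, whose hair has an abnormal medulla and sheen. Gata3 and Cux1 are needed for the inner root sheath, and Foxe1 acts in the orientation of the growing follicle. Several of these genes are also active outside the bulb: Foxn1, Dlx3 and Gata3 in differentiating interfollicular epidermis, Gata3 and Lef1 in T cells, and Cux1 in most cell types.

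RefSeq promoter windows (build GRCm38.p6) were at hand for 6 of the 10 genes, in 9 windows. The 250 bases before a listed start site are shown for the 3 genes whose window held a match to a binding-site core of a factor family represented among the 10: the homeobox core TAATTA (Hoxc13, Msx1, Msx2 and Dlx3 are homeobox factors) and the forkhead core TGTTTAC (Foxn1, Foxe1 and Foxq1 are forkhead factors). Each reads 5′ to 3′ on the gene's strand and the capitals mark the match.
Foxn1: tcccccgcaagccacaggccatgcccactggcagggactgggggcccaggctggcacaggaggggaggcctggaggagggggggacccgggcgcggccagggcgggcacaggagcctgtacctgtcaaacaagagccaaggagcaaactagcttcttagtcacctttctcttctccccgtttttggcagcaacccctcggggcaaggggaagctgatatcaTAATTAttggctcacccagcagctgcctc
Msx2: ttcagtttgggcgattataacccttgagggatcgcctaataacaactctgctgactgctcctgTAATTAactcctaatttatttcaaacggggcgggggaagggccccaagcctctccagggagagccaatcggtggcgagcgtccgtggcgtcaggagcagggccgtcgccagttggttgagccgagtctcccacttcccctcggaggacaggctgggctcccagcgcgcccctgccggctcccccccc
Cux1: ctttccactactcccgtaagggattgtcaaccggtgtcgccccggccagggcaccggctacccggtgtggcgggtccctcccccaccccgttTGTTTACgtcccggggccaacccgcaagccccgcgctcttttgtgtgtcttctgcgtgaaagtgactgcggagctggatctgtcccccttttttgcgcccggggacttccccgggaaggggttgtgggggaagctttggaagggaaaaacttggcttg
The Foxn1 window is chr11:78386609-78386858, the Msx2 window chr13:53472781-53473030 and the Cux1 window chr5:136565982-136566231, all on the minus strand. TAATTA, which reads the same on both strands, starts at position -29 from the Foxn1 start and at -187 from that of Msx2, and 4.84% of 32851 RefSeq windows of this length hold it. TGTTTAC starts at -158 in Cux1, and 3.17% of windows hold it on either strand. In all, 7 motifs were searched on both strands. For the family of Lef1 the letters were CTTTGAT, held by 3.21% of windows. A second form, CTTTGAA, is held by 4.46%. The second homeobox form, TAATTG, is held by 7.17%. For the family of Gata3 the letters were AGATAA, held by 9.99%. Each printed window had a single match, so none overlapped. The last motif was that of the common core promoter box. TATAAA had 1 match, on the opposite strand in 1 of 4 windows of Lef1, and is held by 12.4% of windows, while the windows of Gata3 and Msx1 had no match. The printed windows had a GC content of 63.2% (Foxn1), 61.6% (Msx2) and 62.8% (Cux1), against a median of 52.4% over all windows. A match is a run of letters and not a measured binding site. The cores are general forms for a family, and single members, Hoxc13 and Foxn1 included, may prefer other sites. No match is therefore assigned to any of the 10 factors.

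Of the 10 genes, 8 fell, 1 (Foxe1) rose and 1 (Msx1) did not pass the test in cKO-labelled libraries. Over all genes tested, 30.6% were called lower, 30.8% higher and 61.4% either way, at a Benjamini-Hochberg adjusted p under 0.05 by edgeR's quasi-likelihood test. The median log2 fold change was -0.52 over the 10 genes and 0.00 over all 15061. Of the 10, 4 fell at least 1.5-fold (10.3% of all genes tested did) and 1 fell at least 2-fold (4.79%). The groups did not overlap at any of the 10 genes, against 64.9% of genes tested that did not: all libraries labelled cKO lay below all controls for 9 of them (32.3% of genes tested) and above all controls for Foxe1 (32.6%). Among the 1060 tested genes that the deposited annotation assigns to a transcription factor family, which include these 10, 26.9% were lower, 24.2% higher and 8.3% lower by at least 1.5-fold. Counts over the 10 genes added up to 19047 to 19542 in control libraries and 12204 to 12885 in those labelled cKO. In whole tissue, fewer cells of a type and less RNA per cell cannot be told apart.

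**Figure D1:**
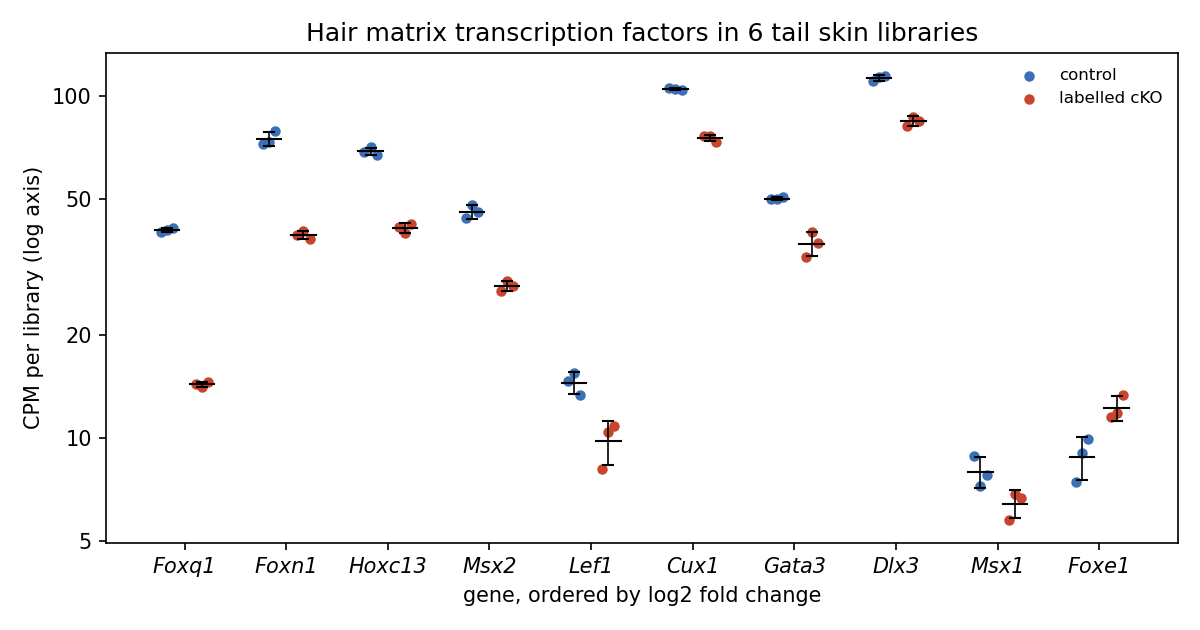
CPM (counts scaled to library size, log axis) of the 10 genes in each library, with points for libraries, short bars for group means and whiskers for SD (n = 3 per group). The points of the group labelled cKO lie below those of the control group for 9 genes, from Foxq1 with the widest gap to Msx1 with the narrowest, and above them for Foxe1.

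The gene on which the labels rest did not fall. Mettl3 had 440, 389 and 337 counts in control libraries and 569, 512 and 540 in those labelled cKO (log2 fold change 0.48, SE 0.11, edgeR adjusted p = 0.000102). The count covers the whole gene, and the floxed part was not analysed separately here, so directions are given for libraries as labelled. Total counts were 35855880 to 37043849 per library, and 3 counts, the limit that a count of 0 allows, equal 0.0817 to 0.0837 CPM, a limit for counting error only. The lowest count of any of the 10 genes in a library was 207.

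Foxq1, the satin gene, had the largest fall of the 10. Its level was 39.9, 40.6 and 41.1 CPM in the control libraries and 14.4, 14.1 and 14.5 CPM in those labelled cKO. The 3 libraries of each group lay close together and the groups far apart. The fall was 2.83-fold (log2 fold change -1.499, SE 0.074, edgeR adjusted p = 9.58e-30), and 2.21% of genes tested had a more negative fold change. Foxq1 has been placed downstream of Hoxc13 in the hair shaft.

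Foxn1, the nude gene, had the next largest fall. It stood at 72.3, 73.4 and 78.7 CPM in control and at 39.1, 40.3 and 38.1 CPM in cKO-labelled libraries. Its lowest control library was thus far above its highest library labelled cKO. The difference was 1.91-fold (log2 fold change -0.93, SE 0.051, edgeR adjusted p = 2.97e-27). Hoxc13, a posterior Hox gene with a second role in hair and nail formation, had 68.6, 70.6 and 67.1 CPM in control and 41.2, 39.7 and 42.2 CPM in cKO-labelled libraries. Its fall was 1.67-fold (log2 fold change -0.74, SE 0.051, edgeR adjusted p = 7.07e-22), again with no overlap between groups.

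Msx2 and Msx1 are paralogous homeobox factors that respond to BMP signals. Msx2 had 43.8, 48.0 and 45.6 CPM in control and 26.8, 28.8 and 27.8 CPM in cKO-labelled libraries, a 1.65-fold fall (log2 fold change -0.72, SE 0.062, edgeR adjusted p = 5.25e-17). Msx1 had 8.85, 7.20 and 7.79 CPM in control and 5.73, 6.86 and 6.65 CPM in cKO-labelled libraries. All its control libraries were above the others, with only 7.20 against 6.86 CPM at the nearest, and the difference did not pass the test (log2 fold change -0.31, SE 0.14, edgeR adjusted p = 0.0568). Without control replicate 2, the lowest control library, Msx1 had a log2 fold change of -0.38 and an adjusted p of 0.0403, and limma on log2(FPKM + 1) with a filter of 0.5 FPKM gave -0.22 with 0.0353. Per gene length, the ratio of Msx2 to Msx1 was 4.42, 5.96 and 5.22 in control and 4.17, 3.75 and 3.73 in cKO-labelled libraries, with no overlap (exact permutation p = 0.1, the smallest that 3 against 3 libraries allow, and 0.117 adjusted over 7 ratios).

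Dlx3, a homeobox factor reported upstream of Hoxc13 and Gata3 in the matrix, was the most abundant of the 10. Its level was 110.3, 113 and 114 CPM in control and 81.3, 86.8 and 84.5 CPM in cKO-labelled libraries. The fall was small but wider than the spread within either group (1.34-fold, log2 fold change -0.42, SE 0.038, edgeR adjusted p = 2.95e-16). Lef1, the Wnt effector, had 14.7, 15.4 and 13.3 CPM in control and 8.11, 10.4 and 10.8 CPM in cKO-labelled libraries. Replicate 1 of the group labelled cKO was the low one. The fall was 1.48-fold (log2 fold change -0.57, SE 0.11, edgeR adjusted p = 1.27e-05), and its coefficient of variation of 14.8% in that group was the widest of the 10 genes there.

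Gata3 and Cux1, the factors of the inner root sheath, fell by similar amounts. Gata3 had 49.9, 49.7 and 50.5 CPM in control and 33.8, 39.9 and 37.2 CPM in cKO-labelled libraries, tight in the first group and spread in the second. Its fall was 1.35-fold (log2 fold change -0.44, SE 0.058, edgeR adjusted p = 6.52e-10). Cux1 had 105, 104 and 104 CPM in control and 76.1, 76.2 and 73.4 CPM in cKO-labelled libraries, a 1.39-fold fall (log2 fold change -0.47, SE 0.039, edgeR adjusted p = 6.05e-18). The ratio of Gata3 to Cux1 per gene length was 1.92 ± 0.0291 in control and 1.97 ± 0.167 in cKO-labelled libraries (SD, n = 3), and its values overlapped (exact permutation p = 0.7). T cells also express Gata3 and Lef1, and 7 of the 9 tested T cell markers were higher and none lower, with Cd4 going from 1.24 ± 0.354 to 5.16 ± 0.804 CPM, while Gata3 and Lef1 were lower.

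Foxe1, the forkhead factor of follicle orientation, was the exception. It had 7.41, 9.04 and 9.88 CPM in control and 11.5, 11.8 and 13.4 CPM in cKO-labelled libraries. Each library labelled cKO was above each control, and control replicate 1 was the lowest of the 6. The rise was 1.39-fold (log2 fold change 0.48, SE 0.12, edgeR adjusted p = 0.000473), and it ran from 0.37 to 0.57 on the log2 scale as each library was left out in turn.

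**Figure D2:**
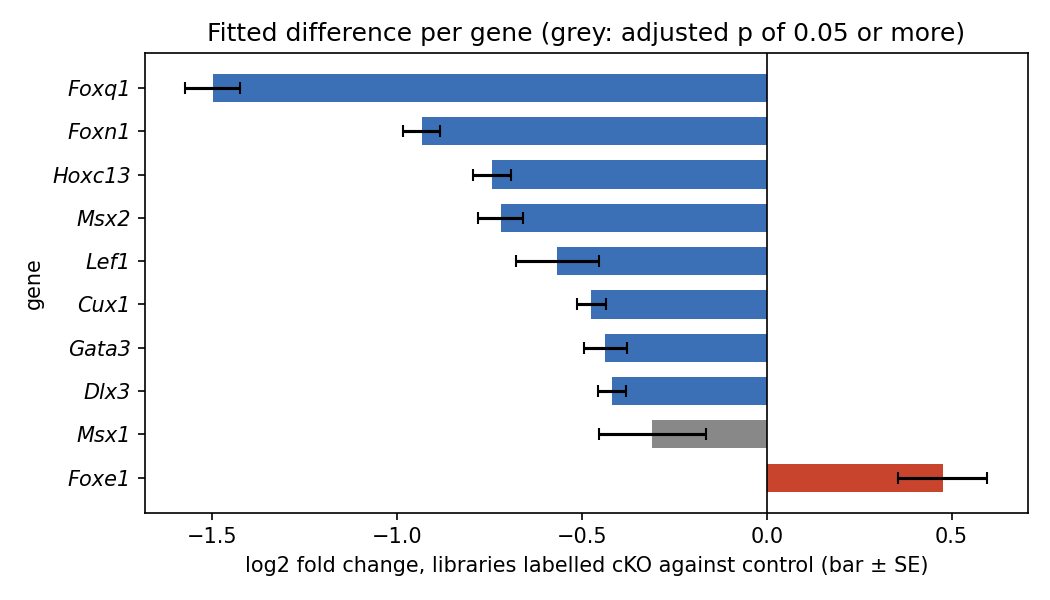
Fitted log2 fold change of each gene, libraries labelled cKO against control, with whiskers for the SE of the fit. Bars to the left are lower in the group labelled cKO, from Foxq1 at -1.499 to Msx1 at -0.31 (grey, adjusted p = 0.0568 by edgeR), and Foxe1 stands alone on the right at 0.48.

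The calls rest on the small spread between libraries. When a biological coefficient of variation of 20% was assumed in its place, Foxq1, Foxn1, Hoxc13 and Msx2 still passed while Dlx3, Lef1, Gata3, Cux1 and Foxe1 did not (adjusted p from 0.0777 to 0.212 by edgeR's likelihood ratio test). With 40%, only Foxq1 passed (adjusted p = 0.040 by the same test). Over all 15061 genes tested, 1531 were lower and 1830 higher with 20%, and 316 were lower and 458 higher with 40%.

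Levels were set against each other as FPKM, counts per gene length and library total. In control skin Dlx3 was highest at 42.8 ± 0.847 FPKM, followed by Hoxc13 at 28.0 ± 0.697, Foxn1 at 22.0 ± 1.01, Msx2 at 21.0 ± 0.991, Foxq1 at 14.3 ± 0.234, Gata3 at 12.9 ± 0.108 and Cux1 at 6.74 ± 0.052 FPKM (SD, n = 3). Foxe1 at 4.09 ± 0.589, Msx1 at 4.08 ± 0.428 and Lef1 at 3.19 ± 0.232 FPKM were lowest. Neighbours in this order overlapped in 2 cases, Foxn1 with Msx2 and Foxe1 with Msx1, and were apart in every control library otherwise. Cux1, next to Dlx3 in CPM, ranked 7th per gene length.

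The order differed in cKO-labelled libraries, where no neighbours overlapped. Foxq1 moved from the 5th to the 7th place, at 5.14 ± 0.0819 FPKM, and Foxe1 from the 8th to the 6th, at 5.77 ± 0.476 FPKM. Foxe1 per Foxq1 was 0.245, 0.294 and 0.317 in control and 1.05, 1.11 and 1.21 in cKO-labelled libraries, so the less abundant of these forkhead genes became the more abundant one. Foxn1, which overlapped Msx2 in control, lay below it, at 11.7 ± 0.331 against 12.95 ± 0.475 FPKM. Relative to Hoxc13 per length, Foxq1 fell from 0.511 ± 0.0174 to 0.303 ± 0.00454 and Foxn1 from 0.786 ± 0.0518 to 0.689 ± 0.0409, while Dlx3 rose from 1.53 ± 0.0526 to 1.92 ± 0.109. These ratios and that of Foxq1 to Foxn1 (0.651 ± 0.0202 and 0.440 ± 0.0194) did not overlap between groups, each with an exact permutation p of 0.1, the smallest possible here, and 0.117 after adjustment over 7 ratios.

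**Figure D3:**
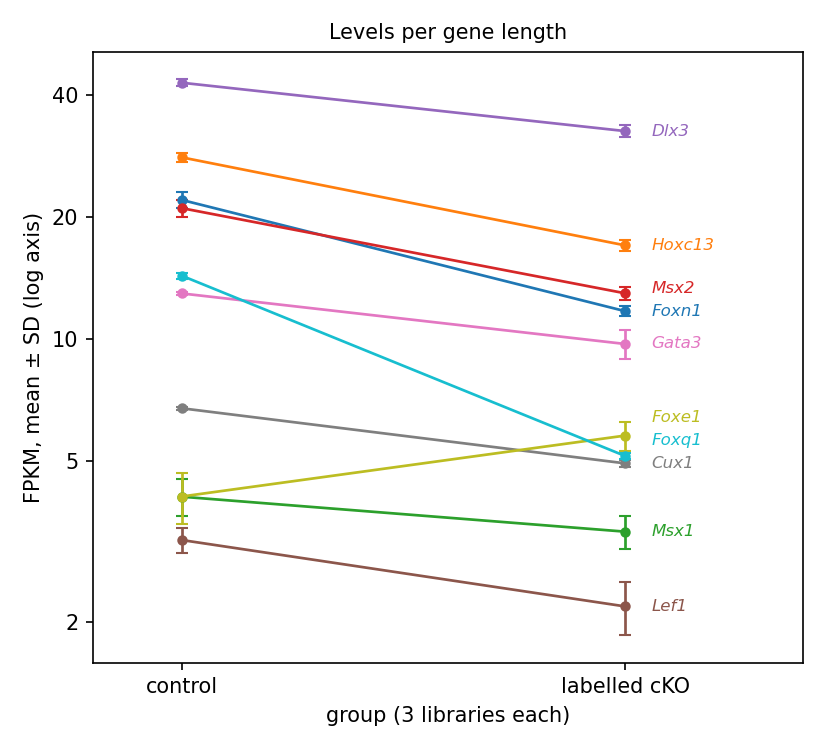
Mean FPKM of the 10 genes on a log axis in both groups, with whiskers for SD (n = 3) and a line joining the groups for each gene. The line of Foxq1 is the steepest and crosses those of Gata3 and Foxe1, and the line of Foxe1 is the only one that climbs.

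Replicate 1 of the group labelled cKO was the lowest of its group for 6 of the 10 genes and the highest for none. Among the controls, replicate 1 was lowest for 5 genes. Leaving out any one library changed the call of no gene but Msx1.

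Likeness of pattern was measured as the root-mean-square distance between log2 CPM profiles over the 6 libraries, each centred on its control mean, which mostly reflects the size of the group difference. Among the 10 genes the closest pairs were Dlx3 with Gata3 (distance 0.0458), Dlx3 with Cux1 (0.0562) and Hoxc13 with Msx2 (0.0607), and the farthest was Foxe1 with Foxq1 (1.399). Candidates were 11211 other genes with a mean of at least 5 CPM and no predicted, clone or Rik name. Those nearest to Foxq1 were Krtap13-1, a hair keratin-associated protein (0.0205), and Lhpp (0.0241), and 37 genes lay within 0.1. Nearest to Foxn1 were Igfbp3 (0.0280) and Lgr4, a receptor for R-spondins (0.0282), with 124 genes within 0.1. Hoxc13 had Ginm1 (0.0185) and Emp1 (0.0302) closest, Msx2 had Aldh6a1 (0.0237) and Peli3 (0.0242), and Lef1 had Npr3 (0.0460) and Atat1 (0.0474). Hoxc13 had 264 genes within 0.1, Msx2 244, Msx1 158, Foxe1 33 and Lef1 27. Counts were higher for the other three: 963 genes lay within 0.1 of Dlx3 (closest Eif3f at 0.0169 and Arl6ip5 at 0.0187), 826 of Cux1 (Rnf181 at 0.0166 and Rplp0 at 0.0175) and 619 of Gata3 (Tex264 at 0.0338 and Zfp358 at 0.0365). Rev3l (0.0383) and Zmym6 (0.0439) were nearest to Msx1, and Terf2 (0.0515) and Pdxp (0.0525) to Foxe1.

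Structural genes of the hair shaft and its sheath, which factors such as Foxn1, Hoxc13, Lef1 and Gata3 act on, were lower too. Of 15 hair shaft keratin genes 14 fell and none rose (median log2 fold change -1.10), beside 30.6% lower and 30.8% higher over all genes tested. Krt84 and Krt36, which also mark the scale epidermis of the mouse tail, fell most, from 15426 ± 11.5 to 2378 ± 24.1 CPM and from 13897 ± 57.8 to 2450 ± 4.10 CPM. Krt35, an early shaft keratin reported as a target of Foxn1 and Hoxc13 and singled out after its values were seen, was the only one of the 15 that did not pass, at 313 ± 5.85 and 308 ± 8.38 CPM (log2 fold change -0.03, SE 0.023, edgeR adjusted p = 0.328). All 56 keratin-associated protein genes fell (median -1.85), with Krtap20-2 at -4.67 and Krtap13 at -4.13 lowest, though near-identical copies in this family may share reads. All 8 tested genes of the inner root sheath fell (median -0.76), with Krt26 going from 102 ± 1.54 to 45.7 ± 2.01 CPM and Krt72 from 134 ± 3.90 to 61.2 ± 1.84 CPM. Of 6 other shaft genes 5 fell, led by Gprc5d (2.82-fold) and Crym (2.17-fold), and Tgm3, a transglutaminase of shaft and cornifying epidermis, rose 3.96-fold from 125 ± 3.01 to 495 ± 7.70 CPM.

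Other transcription factors of skin were described by list, beside 26.9% lower and 24.2% higher over all tested transcription factor genes. All 6 factors listed for follicle stem cells fell (median -0.60), led by Lhx2 (from 22.3 ± 1.501 to 10.8 ± 0.859 CPM) and Foxc1 (from 60.1 ± 2.63 to 30.9 ± 2.24 CPM). The 13 other follicle regulators split into 5 lower and 4 higher (median -0.05). Among them Elf5 and the vitamin D receptor gene Vdr fell 1.67-fold and 1.44-fold, and Runx3 and Bcl11b rose 1.84-fold and 1.24-fold. Of 17 epidermal differentiation factors 8 fell and 5 rose (median -0.13), with log2 fold changes of -0.50 for Grhl1 and -0.32 for Cebpa and of 0.51 for Cebpb. These medians stand beside -0.52 for the 10 hair matrix factors and are given without a test of the difference. The lists are not distinct: Ovol1, Tfap2a and Prdm1 are in both the follicle regulator and the epidermal list. Tcf7l1 is in the stem cell list and again among the Wnt genes below.

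**Figure D4:**
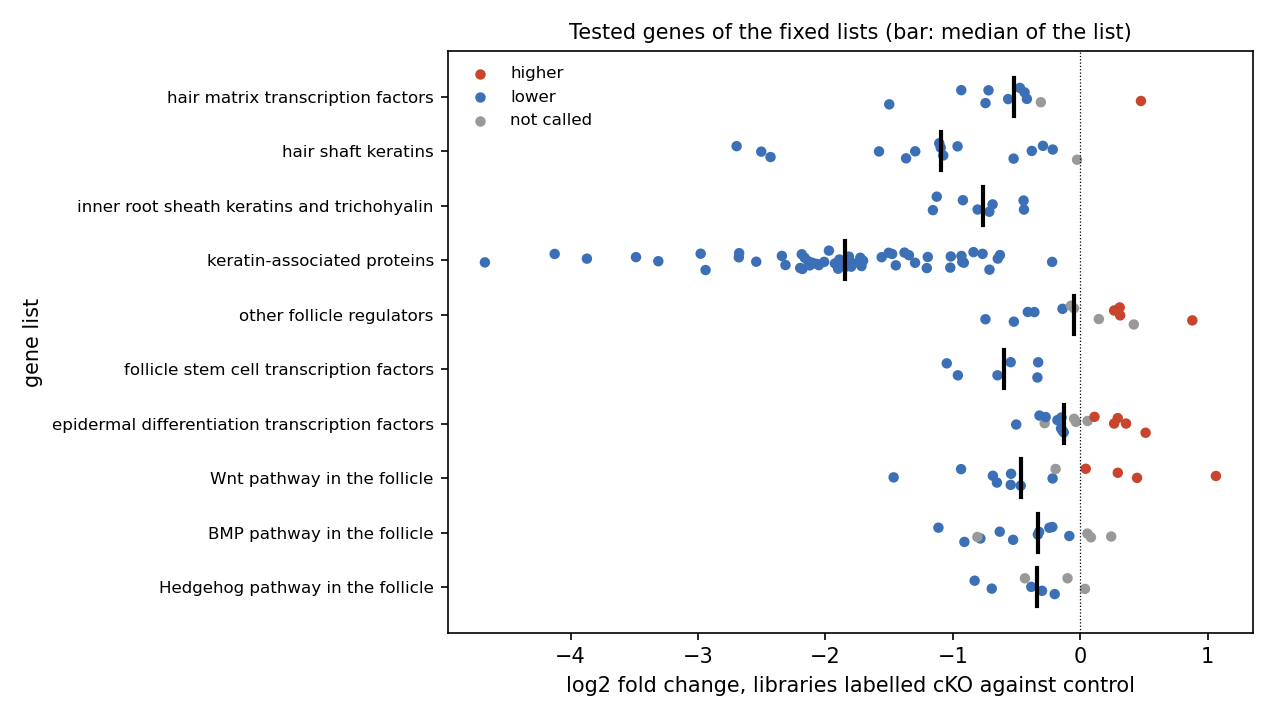
Log2 fold change (libraries labelled cKO against control) of each tested gene in 10 lists, coloured by call, with a black bar at the median of the list. The shaft and sheath lists lie left of 0, at medians of -1.10, -0.76 and -1.85, while the epidermal differentiation factors straddle it at -0.13.

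Genes of the signalling pathways that feed these factors were also measured, beside 30.6% lower and 30.8% higher over all genes tested. The BMP list, whose signals act through Msx2 and Foxn1 in the differentiating matrix, had 10 of 14 genes lower and none higher (median -0.33). With upper quartile scaling, 9 were lower. The list mixes ligands, receptors and inhibitors. Named here as inhibitors, Nog and Bambi fell and Grem1 did not pass, so the count gives no direction for BMP signalling. The ligand genes Bmp4 and Bmp2 fell most, from 25.0 ± 0.266 to 11.5 ± 1.44 CPM and from 21.1 ± 1.27 to 11.2 ± 0.294 CPM. The Wnt list, of ligands, a receptor, inhibitors, relatives of Lef1 and the beta-catenin gene Ctnnb1, had 8 of 13 lower and 4 higher (median -0.47). With upper quartile scaling, 7 were lower. Ctnnb1, named here as the partner of Lef1, was among the higher ones (log2 fold change 0.04, SE 0.015, edgeR adjusted p = 0.0135). Notum, a secreted Wnt inhibitor, fell from 2.83 ± 0.653 to 1.02 ± 0.417 CPM and Lgr4 from 113 ± 2.03 to 58.9 ± 1.83 CPM, whereas Wnt5a rose from 24.9 ± 0.892 to 52.1 ± 1.29 CPM and Wnt10a from 16.5 ± 1.96 to 22.4 ± 1.58 CPM. Of 8 Hedgehog genes 5 fell and none rose, 3 with upper quartile scaling of libraries. They include Shh itself (from 1.67 ± 0.330 to 0.937 ± 0.140 CPM, edgeR adjusted p = 0.0426). The ectodysplasin receptor gene Edar fell from 1.001 ± 0.484 to 0.313 ± 0.0585 CPM, and its ligand Eda and adaptor Edaradd did not pass (adjusted p = 0.215 and 0.0743 by edgeR). With upper quartile scaling or total counts, 1 gene of this list of 3 passed as higher.

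In control CPM, which take no account of gene length, close relatives of the 10 genes were mostly rarer than their counterparts. Tcf7 and Tcf7l1 were above Lef1 (29.1 and 19.5 against 14.5 CPM), and Foxn3 was about level with Foxn1 (74.7 and 74.8 CPM). Of 21 paralogs with counts, 13 had enough to be tested, 5 fell and none rose. Over all genes tested, 30.6% were lower and 30.8% higher. Gata6 fell from 6.57 ± 0.451 to 3.49 ± 0.0952 CPM and Tcf7, a relative of Lef1, from 29.1 ± 1.21 to 18.5 ± 0.848 CPM. In the Hoxc cluster, Hoxc13 at 68.8 ± 1.72 CPM in control stood far above the other 8 genes, whose control means were at most 2.88 CPM (Hoxc12), and fell, while Hoxc5 and Hoxc6 rose (from 1.03 ± 0.301 to 1.82 ± 0.281 CPM and from 1.93 ± 0.532 to 3.42 ± 0.647 CPM). The other 6 did not pass. Among these Hoxc4, singled out after its values were seen, had a log2 fold change of -0.76 at 1.57 ± 0.563 and 0.929 ± 0.424 CPM (SE 0.39, edgeR adjusted p = 0.0855), close in size to the -0.74 of Hoxc13, and its groups overlapped. The chromosomal neighbours of Hoxc13 in RefSeq are Hoxc12 and Calcoco1. Hoxc12 did not pass (log2 fold change 0.44, SE 0.22, edgeR adjusted p = 0.0781), and Calcoco1 fell with a log2 fold change of -0.97. Foxq1 lies between Exoc2 (log2 fold change -0.14) and the forkhead gene Foxf2, which rose from 0.119 ± 0.104 to 0.542 ± 0.125 CPM. In control libraries Foxf2 was near the detection floor. Dlx3 lies between Dlx4, which did not pass (adjusted p = 0.127 by edgeR), and Itga3, which rose from 62.8 ± 2.10 to 80.7 ± 3.01 CPM. Beside Foxe1, Trmo rose with a log2 fold change of 0.54.

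Markers of the tissue and of other cell types moved as well, and their part in the differences of the 10 genes was not tested. The shares over all genes tested were 30.6% lower and 30.8% higher. Keratinocyte markers were abundant in both groups, and 4 of 6 were higher and 2 lower. Krt1, a keratin of differentiating epidermis, rose 9.44-fold from 2170 ± 15.9 to 20492 ± 141 CPM, and Krt14, a basal keratin, rose 1.85-fold from 4157 ± 89.5 to 7687 ± 134 CPM. Sebocyte markers, of the gland attached to the follicle, had 4 of 5 lower, with summed levels of 828 to 845 CPM in control and 390 to 408 CPM in cKO-labelled libraries. Dermal papilla markers, of the mesenchyme that instructs the matrix, had 1 of 6 higher and none lower, with sums of 32.9 to 36.01 and 36.1 to 40.9 CPM. T cell markers summed to 9.35 to 10.8 and 22.6 to 24.7 CPM, and of 3 tested markers of type 2 lymphocytes 2 were higher and 1 lower (sums of 12.3 to 13.5 and 31.0 to 32.8 CPM). Fibroblast markers had 5 of 6 higher and 1 lower, summing to 11087 to 11190 and 16140 to 16182 CPM. The 4 endothelial and the 4 melanocyte markers were all higher, with sums of 124 to 131 and 168 to 173 CPM for the first and of 80.5 to 82.6 and 134 to 140 CPM for the second. Skeletal muscle markers were scarce, at sums of 5.77 to 9.05 and 9.29 to 21.5 CPM, and 1 of 5 was higher. No marker in the table was at 0 in all libraries.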

How the data were processed

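RNA was extracted with TRIzol from tail skin and made into libraries with a VAHTS Universal V5 kit, per the labels' protocols. The authors deposited whole-number counts per gene, not normalized, and FPKM values for the same 18180 genes. The submitters' processing notes name fastp, HISAT2, HTSeq and the mm39 build. For versions, gene annotation and strand setting: not given in the sources used here. In RefSeq (GRCm38.p6, used for names and promoter windows) 5 of the 10 genes overlap another gene, 8 in all and none of these in the table, Msx1 an antisense RNA among them, so their reads cannot be told apart. The deposited FPKM equalled counts divided by a gene length and the sum of the column (relative tolerance 1e-06) for all 18180 genes.

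The test of counts used edgeR 4.0.16 (R 4.3.3): filterByExpr (minimum count 10, minimum total 15), TMM scaling, robust quasi-likelihood fit with group as the only term, two-sided, Benjamini-Hochberg adjustment over all 15061 genes tested. Genes were called at an adjusted p under 0.05. CPM use TMM-scaled library sizes. The SE is the log2 fold change over the square root of F. The steps were tested on simulated data. Libraries of a group differed by 3.94 to 4.12 times the sampling variance, so none was a copy. Replicate numbers have no stated meaning and gave no sign of pairing (deviation correlations of same-numbered libraries -0.019, -0.015 and -0.057). That check weighs all tested genes alike, low counts included, and cannot exclude pairing. Members and lists were chosen with earlier results of these data known. The text takes its examples from each list among the called genes with the 2 largest rises and falls at 1 CPM or more, and names the 2 nearest profiles and chromosomal neighbours of a member, and others where it says so. Some genes that this rule would name are not reported here. Alternatives were other scalings and filters, DESeq2 1.42.0, limma 3.58.1 (voom, and log2 FPKM with pseudocounts of 1 and 0.1), a replicate block, a threshold of 0.01, assumed variation of 20% and 40%, and leaving out each library.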

Additional observations from a re-analysis of the deposited data

How the results depend on the processing

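Over 20 alternatives, none of the 200 gene-level results changed direction, 184 kept their side of the threshold, and 13 lost it, all 13 with an assumed coefficient of variation. The other 3 were Msx1, which passed by limma on log2(FPKM + 1) and log2(FPKM + 0.1) with a filter of 0.5 FPKM (adjusted p = 0.0353 and 0.0365) and without control replicate 2, which makes 9 genes lower, and had an adjusted p of up to 0.248 when another library was left out. With an assumed coefficient of variation of 20%, 3361 of 15061 genes passed in place of 9244, 1531 of them lower. Of the 10 genes, 4 were lower and 0 higher. With 40%, 774 genes passed, 316 of them lower, with 1 of the 10 lower and 0 higher. Leaving out each library gave 8694 to 8847 genes over the table, 8 to 9 of the 10 lower and 1 higher. With the replicate number as a block, 9212 genes passed, 8 of the 10 lower and 1 higher. Since the numbers have no stated meaning, this fit is given for completeness. Scaling by total counts or upper quartile moved the median over all genes to at most 0.031 on the log2 scale and changed no sign among called genes of the lists. At over 200 counts per gene and library, depth did not keep any of the 10 genes from being tested.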

Other observations

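Families were formed from the deposited annotation after the data had been seen, and are described without a test. Among all 1060 tested transcription factor genes, 26.9% were lower and 24.2% higher. Of 29 tested forkhead genes, Foxn1, Foxq1 and Foxe1 included, 17 were lower (58.6%) and 5 higher, with a median log2 fold change of -0.25. Foxl1, near the detection floor in cKO-labelled libraries, went from 1.35 ± 0.397 to 0.0918 ± 0.0885 CPM, and Foxc2 from 4.83 ± 0.230 to 1.61 ± 0.515 CPM, and these had the largest falls of the family. The 5 that rose were Foxe1, Foxm1, Foxp3, Foxp4 and Foxf2, the last near the detection floor in control libraries. Foxm1, which drives cell division, rose from 9.63 ± 1.63 to 20.5 ± 1.12 CPM. Foxp3, the factor of regulatory T cells, rose from 0.320 ± 0.180 to 1.79 ± 0.644 CPM. Of 12 tested genes that the annotation places in the GATA zinc finger family, 6 were lower and none higher (median -0.24). The 6 were Gata3, Gata6, Gatad2b, Mta3, Rere and Mta2, of which only Gata3 and Gata6 are GATA factors by name. Gata1 and Gata2 did not pass. The larger homeobox family was nearer to balance, with 23 of 97 lower and 19 higher (median -0.06), or 21 and 21 with upper quartile scaling.

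Of 23 tested transcription factor genes with a hair follicle or hair cycle term in the deposited annotation, 12 were lower and 4 higher. Among all tested transcription factor genes, 26.9% were lower and 24.2% higher. Foxn1, Hoxc13, Foxe1 and Foxq1 are among the 23, and without these the other 19 had 9 lower and 3 higher (median -0.10). Lhx2 and the clock gene Arntl, at 39.8 ± 1.97 and 22.6 ± 0.485 CPM, fell most, and Runx3, Snai1 and Sox18 rose, Sox18 from 7.997 ± 0.601 to 14.2 ± 2.17 CPM.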
